A study of Mus musculus with 12 samples.

Results

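Histone genes were followed in mouse clone number 483, a T cell acute lymphoblastic leukaemia, in cells exposed to 4EGI-1 and in control cells. A gene was taken when a probe set of the array carried a single gene symbol and that symbol, or its former name, was a histone, with no filter on the level. This gave 44 genes of the 19937 with a probe set of their own. They were 8 linker histone H1 genes, 14 H2A, 11 H2B, 4 H3 and 7 H4 genes. By their former names, 28 were replication-dependent genes (Hist1h to Hist4h), 3 were testis genes of the same clusters (H1f6, H2ac1 and H2bc1) and 13 were variants. These counts hold 2 genes annotated as transcribed pseudogenes, H2bu1-ps among the replication-dependent genes and Macroh2a3 among the variants. The gene table held 93 histone genes by this rule. Of these, 39 were named on the array by probe sets that list several genes, and 10 had no named probe set here. The 22 probe sets that list several histones and nothing else are given apart. Of the 44 genes, 35 had a mean over the 12 arrays of at least 6.0 on the log2 scale, which is the 40th percentile of the probe sets and is called the dim level here, and 9 were dimmer.

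Histones are the proteins around which DNA is wrapped. Pairs of H2A with H2B and of H3 with H4 form the core of the nucleosome, and H1 binds the DNA that enters and leaves it. The replication-dependent genes lie in clusters, are transcribed mainly in S phase, and give mRNAs without introns that end in a conserved stem-loop in place of a poly(A) tail. The stem-loop is bound by SLBP, which takes part in 3′ end formation, in translation and in the decay of these mRNAs when DNA synthesis stops. Variant histones such as H2A.Z, macroH2A and H3.3 are encoded by genes outside this scheme. Most of these genes give polyadenylated mRNAs made throughout the cell cycle. Some replication-dependent genes can also give polyadenylated mRNA, in particular in differentiated cells.

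4EGI-1 is a small molecule that interferes with the joining of the cap-binding protein eIF4E to eIF4G during initiation of translation. There were 4 groups of 3 arrays, all from the same clone on a C57BL6 background: polysomal RNA of cells given 100 µM 4EGI-1 for 2 h, polysomal RNA of control cells, cytoplasmic RNA of 4EGI-1 cells and cytoplasmic RNA of control cells. The control cells are called untreated in the labels and DMSO-treated in the protocol, and the cytoplasmic samples carry the word total in their titles, so they may hold nuclear RNA. A single clone limits the results to that clone. Polysomal RNA passed through a sucrose gradient, a column and LiCl, whereas cytoplasmic RNA was taken with Trizol, so that fraction and purification cannot be told apart. How the whole-transcript amplification treats mRNA without a poly(A) tail is not given in the sources used here. Per the labels these were separate samples, and the p-values measure the spread between 3 arrays a group, which may be technical in part.

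Array medians lay between 6.4 and 6.56, and correlations between arrays of one group were 0.992 to 0.996 in cytoplasmic 4EGI-1 cells, 0.991 to 0.994 in cytoplasmic control cells and 0.996 to 0.997 in polysomal RNA. The median SD over all genes was 0.0907 and 0.0845 in polysomal RNA of 4EGI-1 and control cells, and 0.129 and 0.137 in cytoplasmic RNA of 4EGI-1 and control cells. The 11 T lineage markers measured were all above the dim level, with means of 8.24 to 12.19, and after 4EGI-1 2 of 11 were lower and 1 higher in polysomal RNA, where 6.88% and 8.54% of all genes were, and 1 was lower in cytoplasmic RNA, where 3.99% of all genes were. Of the 4 B cell markers 2 were above it (4.42 to 6.67), of 5 myeloid markers 3 (5.28 to 6.74), of 3 erythroid markers 3 (6.32 to 6.98) and of 4 stromal markers 3 (5.93 to 8.48). Of these other markers, 1 myeloid gene passed in cytoplasmic RNA and none in polysomal RNA, and their part in the results was not tested. In such bulk RNA, fewer cells that make a histone mRNA and less of it per cell cannot be told apart.

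The promoters of the genes on which the results turn are shown because they carry the short elements by which histone classes differ. They are the 250 bases before the annotated start, on the plus strand, from the RefSeq table of GRCm38.p6, 5′ to 3′. Capitals mark each match, on either strand, to the CCAAT box, to the letters TATAAA of the TATA box, and to the octamer ATTTGCAT, a binding site of Oct1 in H2B promoters. H1f1 lies at chr13:23763418-23763667, H1f2 at chr13:23738557-23738806, H2aw at chr11:58954435-58954684, H2bc8 at chr13:23571150-23571399 and H2bc18 at chr3:96269450-96269699.
H1f1: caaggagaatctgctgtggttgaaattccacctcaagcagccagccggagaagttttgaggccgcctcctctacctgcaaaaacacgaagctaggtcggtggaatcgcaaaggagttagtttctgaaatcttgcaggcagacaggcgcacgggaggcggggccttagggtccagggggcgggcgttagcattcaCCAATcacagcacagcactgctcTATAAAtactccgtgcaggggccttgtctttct
H1f2: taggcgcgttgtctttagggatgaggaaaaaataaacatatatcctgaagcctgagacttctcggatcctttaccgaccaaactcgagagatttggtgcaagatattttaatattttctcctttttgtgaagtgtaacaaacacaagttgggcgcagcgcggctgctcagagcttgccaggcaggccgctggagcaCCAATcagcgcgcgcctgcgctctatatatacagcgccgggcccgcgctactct
H2aw: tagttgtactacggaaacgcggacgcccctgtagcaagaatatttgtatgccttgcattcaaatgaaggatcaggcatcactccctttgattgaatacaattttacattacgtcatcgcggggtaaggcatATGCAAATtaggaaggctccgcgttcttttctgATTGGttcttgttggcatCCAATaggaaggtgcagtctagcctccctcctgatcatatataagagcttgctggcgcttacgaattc
H2bc8: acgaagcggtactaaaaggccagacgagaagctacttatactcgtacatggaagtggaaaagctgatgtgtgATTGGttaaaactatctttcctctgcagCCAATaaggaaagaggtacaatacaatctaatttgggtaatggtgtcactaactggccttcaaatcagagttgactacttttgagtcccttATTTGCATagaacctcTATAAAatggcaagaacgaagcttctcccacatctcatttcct
H2bc18: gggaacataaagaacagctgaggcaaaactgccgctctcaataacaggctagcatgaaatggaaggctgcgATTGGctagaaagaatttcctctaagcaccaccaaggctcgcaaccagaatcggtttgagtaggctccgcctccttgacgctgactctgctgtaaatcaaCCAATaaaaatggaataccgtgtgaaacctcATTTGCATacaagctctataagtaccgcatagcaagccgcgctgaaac
In these windows both H1 promoters hold 1 CCAAT box and no octamer. The H2A and H2B promoters each hold 2 CCAAT boxes and 1 octamer. Only H1f1 and H2bc8 of these 5 hold the letters TATAAA.

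The table had a promoter for 37 of the 44 genes. H2bc4, H2bc21 and H2ax are among the 7 it lacks. The CCAAT letters occurred in 27 of 37 promoters (73%), against 33.8% of all 32851 promoters of the table. TATAAA occurred in 15 of 37 (40.5%), against 12.4% of all. The octamer occurred in 9 of 37 (24.3%), against 1.6% of all, and these 9 were 5 of 8 H2B and 4 of 12 H2A promoters. The windows of H2ac8 and H2bc8 overlap, as do those of H2ac1 and H2bc1, so the 9 promoters hold 7 distinct octamers, and CCAAT and TATAAA matches are shared in these pairs as well. None of the 11 variant promoters held TATAAA or the octamer, and 6 of 11 held CCAAT. Overlapping letters of different motifs were not counted apart, and a match is a description of the sequence.

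In control cells, most replication-dependent histone genes had a higher signal in polysomal than in cytoplasmic RNA, relative to the other genes on the array, and no variant did. Of the 28 replication-dependent genes, 18 were higher and 3 lower in polysomal RNA. None of the 13 variants was higher and 2 were lower, and none of the 3 testis genes passed. Over all 44 histone genes this is 18 higher and 5 lower, where 9.77% of all genes tested were higher and 6.99% lower. The median log2 difference, polysomal minus cytoplasmic, was 0.50 over the 28 replication-dependent genes and -0.08 over the 13 variants, against -0.02 over all 19937 genes. Several variants had means near the array medians (H1f7 6.84, H2ab1 6.81, Macroh2a3 6.64, H2al2a 6.55) or below the dim level (H1f8 5.88, H3f3a 5.61, Macroh2a2 5.06). A difference may be hard to see at such levels. At or above the dim level, 18 of 23 replication-dependent genes were higher and 2 lower, with a median of 0.52. Of the 10 variants there, 0 were higher and 2 lower, with a median of -0.08. These 10 still include H1f7, H2ab1, Macroh2a3 and H2al2a, whose means were near the array medians. The difference between the classes has no test of its own, since members of a class share sequence and are no replicates.

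The higher genes covered 4 of the 5 classes. They were 6 of 7 H4 genes, with a median of 0.68, 7 of 11 H2B, 3 of 4 replication-dependent H2A and 2 of 4 replication-dependent H1 genes, and no H3 gene. All 4 H3 genes were below the dim level, with means of 3.61 to 5.61, so the class was hardly measured by its own probe sets. Of the probe sets that list several H3 genes, given below, 3 of 9 were higher. They came from 14 of 20 genes of the Hist1 cluster, 3 of 4 of Hist2, 1 of 3 of Hist3 and 0 of 1 of Hist4. The largest differences among them were those of H2bc21, H4c3 and H2bc4.

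H2bc21 counts as replication-dependent by its former name, Hist2h2be, alone, and how its mRNA is made was not tested. In polysomal control RNA it had log2 values of 9.80, 10.03 and 9.72, against 8.34, 9.06 and 8.39 in cytoplasmic control RNA. This is a difference of 1.26 ± 0.19 (SE, adjusted p = 0.00036). Its polysomal arrays were all above its cytoplasmic arrays, of which array 2 was the highest. H4c3, 1 of the several genes that encode the same H4 protein, had 10.23, 10.24 and 10.36 in polysomal against 9.17, 8.71 and 9.30 in cytoplasmic control RNA (1.22 ± 0.20, adjusted p = 0.000823). The polysomal arrays were close together and the cytoplasmic arrays spread more, without overlap. H2bc3, another H2B gene, had 9.13, 8.97 and 8.96 in polysomal against 8.19, 7.90 and 7.99 in cytoplasmic control RNA (1.00 ± 0.13, adjusted p = 0.000121), again without overlap. H2bc4 had 7.13, 7.11 and 7.14 in polysomal against 5.61, 6.14 and 6.34 in cytoplasmic control RNA (1.09 ± 0.15, adjusted p = 0.000156). Its lowest cytoplasmic array was below the dim level.

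H4c6 had 9.27, 9.45 and 9.48 in polysomal against 8.56, 7.86 and 8.87 in cytoplasmic control RNA (0.97 ± 0.26, adjusted p = 0.0183), with cytoplasmic array 2 well below the other cytoplasmic arrays. H2ac4 differed by 0.87 ± 0.20 (adjusted p = 0.00839), H2aw by 0.81 ± 0.13 (0.000477), the linker histone gene H1f1 by 0.76 ± 0.10 (0.000124), and H4c4 and H4c8 by 0.68 ± 0.11 each (0.000711 and 0.000846). A probe set that lists H2aw with Trim17, a gene that is no histone, went the other way (-0.50 ± 0.13, adjusted p = 0.0144), so that the direction for H2aw depends on the probe set. The other 8 differed by 0.37 to 0.57. All 18 had polysomal arrays above every cytoplasmic array. Over the 44 genes the arrays lay apart in this way for 19, and the other way round for 8, where 15.8% and 16.1% of all genes did. The remaining H4 gene, H4f16, was just outside the threshold (0.33 ± 0.11, adjusted p = 0.0636), as was the testis gene H2bc1 (0.43 ± 0.15, adjusted p = 0.0607), and H4c9 was just inside it (0.37 ± 0.12, adjusted p = 0.0435).

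**Figure D1:**
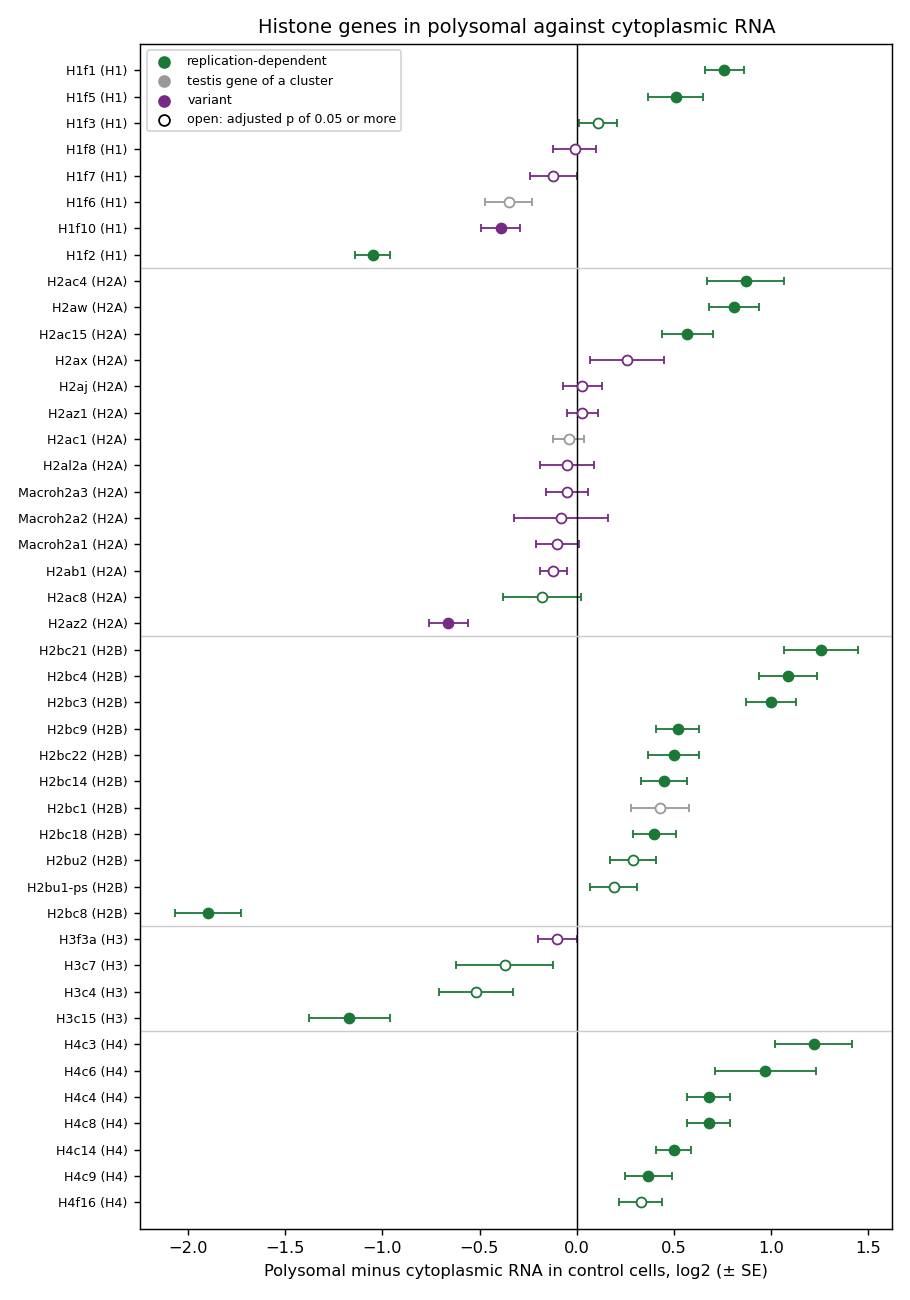
Polysomal minus cytoplasmic RNA in control cells for the 44 histone genes, as log2 difference with its standard error (horizontal axis), grouped by class down the page; green points are replication-dependent, grey testis and purple variant genes, and filled points passed the adjusted p of 0.05. Filled green points lie right of 0 except H2bc8, H3c15 and H1f2, and the filled purple points H1f10 and H2az2 lie left of it.

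A few genes stood on the other side. H2bc8, an H2B gene of the Hist1 cluster, had 6.85, 6.57 and 7.24 in polysomal against 8.73, 8.87 and 8.75 in cytoplasmic control RNA, a difference of -1.90 ± 0.17 (adjusted p = 4.53e-06). H1f2, which encodes the linker histone H1.2, had 7.79, 7.92 and 7.99 in polysomal against 8.95, 8.94 and 8.96 in cytoplasmic control RNA (-1.05 ± 0.09, adjusted p = 4.41e-06). In both genes every polysomal array was below every cytoplasmic array. H3c15 had 3.81, 4.37 and 4.35 in polysomal against 5.67, 5.07 and 5.30 in cytoplasmic control RNA (-1.17 ± 0.21, adjusted p = 0.00151). All its values were below the dim level.

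H2az2, which encodes an H2A.Z variant, had 9.10, 9.35 and 9.26 in polysomal against 9.74, 9.86 and 10.08 in cytoplasmic control RNA (-0.66 ± 0.10, adjusted p = 0.000515), without overlap. H1f10, a variant linker histone, differed by -0.39 ± 0.10 (adjusted p = 0.0151). H2az1, the other H2A.Z gene, differed by 0.03 ± 0.08 (adjusted p = 0.838), and the remaining 10 variants by -0.12 to 0.26, with H2ax the highest. The single-symbol probe set of H3f3a was dim, with a mean of 5.61. The 6 probe sets that pair H3f3a or H3f3b, both of which encode H3.3, with a predicted gene differed by -0.07 to 0.17 and none of them passed.

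Cytoplasmic arrays carried most of the spread. The median SD of the 28 replication-dependent genes was 0.10 and 0.075 in polysomal RNA of 4EGI-1 and control cells, and 0.255 and 0.18 in cytoplasmic RNA of 4EGI-1 and control cells. Array 2 was the lowest cytoplasmic array for 20 of the 28 genes in 4EGI-1 cells and for 18 of 28 in control cells, and array 3 was the highest for 21 and 13 of 28. Their median, set against the cytoplasmic control mean, was 0.47, 0.45 and 0.47 on the polysomal 4EGI-1 arrays, 0.53, 0.47 and 0.47 on the polysomal control arrays, 0.01, -0.14 and 0.23 on the cytoplasmic 4EGI-1 arrays and 0.00, -0.11 and 0.03 on the cytoplasmic control arrays. All 6 polysomal arrays were thus above all 6 cytoplasmic arrays.

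The count of genes higher in polysomal control RNA was 17 with both cytoplasmic arrays numbered 2 left out and 23 with both numbered 3 left out, choices made after seeing the data. It was 14 without cytoplasmic control array 2, polysomal control array 1 or polysomal control array 3, and 14 to 20 over all arrays left out in turn. The calls that ended in 1 or more of these fits were those of H1f5 (without cytoplasmic control array 2 or polysomal control array 1), H2bc14 (cytoplasmic control arrays 2 or 3, polysomal control arrays 1 or 2), H2bc18 (cytoplasmic control array 1, polysomal control arrays 2 or 3), H2bc22 (polysomal control arrays 1 or 3), H4c6 (cytoplasmic control array 2, polysomal control arrays 2 or 3), H1f10 (cytoplasmic control array 2, polysomal control array 3) and H4c9, which passed in 3 of the 12 fits.

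**Figure D2:**
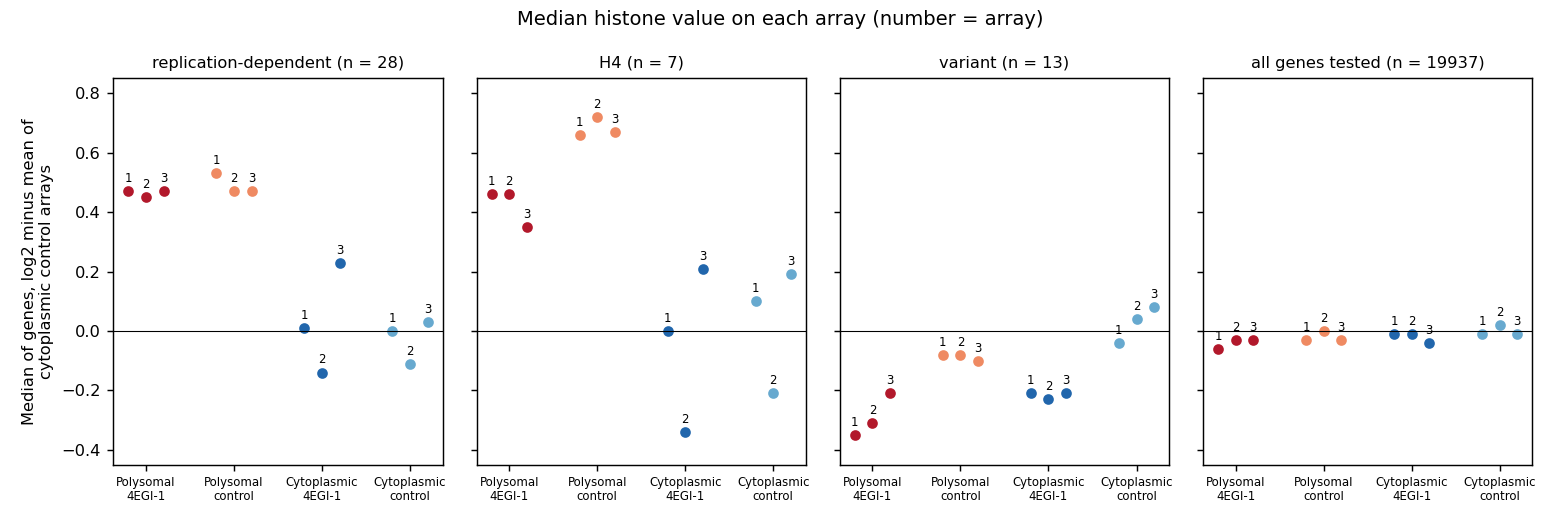
Median over genes on each array, as the log2 value minus the gene's mean over the cytoplasmic control arrays (vertical axis), for the 28 replication-dependent genes, the 7 H4 genes, the 13 variants and all 19937 genes; each point is 1 array and its number is the array's. The 28 replication-dependent genes lie between 0.45 and 0.53 on polysomal arrays and between -0.14 and 0.23 on cytoplasmic arrays.

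The probe sets that name several histones gave a second view of the family with other probes. Of the 22, 13 were higher in polysomal than in cytoplasmic control RNA and 0 were lower, with a median of 0.49, where 9.77% of all genes tested were higher and 6.99% lower. These were 5 of 6 probe sets of H2B genes, 4 of 5 of H4 genes, 3 of 9 of H3 genes and the 1 that lists H2A with H3 genes. They list up to 19 genes each, so no gene is named from them, and they can share transcripts with the 44 genes above. Their lists also repeat: all 9 probe sets of H3 genes name the same 12 genes, and those of H2B and most of H4 genes largely repeat too. The 22 are therefore not separate genes, and their count cannot be read like a share of genes.

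In 4EGI-1 cells, 11 histone genes were higher and 2 lower in polysomal than in cytoplasmic RNA, where 4.86% of all genes tested were higher and 3.86% lower. The higher genes were all replication-dependent. H1f1 differed by 0.66 ± 0.10 (adjusted p = 0.0013), H1f5 by 0.71 ± 0.14 (0.00635), H2bc3 by 0.67 ± 0.13 (0.00623), H2bc4 by 0.72 ± 0.15 (0.00827) and H4c3 by 0.84 ± 0.20 (0.0217). H1f3, H2ac4, H2bc9, H2bc21, H2bc22 and H4c4 were the others, with 0.42 to 0.77. Of the lower genes H2az2 differed by -0.40 ± 0.10 (adjusted p = 0.0269) and H3c15 by -0.82 ± 0.21 (0.0295). The median was 0.39 over the 28 replication-dependent genes and -0.02 over the variants, as it was over all genes (-0.02), and the 0.39 was 0.24 without cytoplasmic 4EGI-1 array 2. The count of higher genes was 7 without cytoplasmic 4EGI-1 array 1, 5 without cytoplasmic 4EGI-1 array 2, and 5, 7 and 4 without polysomal 4EGI-1 arrays 1, 2 and 3. Only H1f1, H1f5, H2bc3 and H2bc4 passed in every alternative fit.

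The smaller number of calls in 4EGI-1 cells than in control cells does not show a difference. That difference, which is the 4EGI-1 effect in polysomal RNA minus that in cytoplasmic RNA, was tested for every gene, and 2 of the 44 histone genes passed, both higher, where 1.07% of all genes tested were higher and 0.14% lower. Its median was -0.09 over the 28 replication-dependent genes, 0.09 over the variants and -0.01 over all genes. All 7 H4 genes had a negative difference, between -0.59 and -0.01, and none of them passed. Their median was -0.27, and it was -0.13 without cytoplasmic control array 2 and -0.09 without cytoplasmic 4EGI-1 array 3. Without either of these arrays 1 histone gene was lower. H4c8 was the nearest of these (-0.59, adjusted p = 0.123).

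The genes that passed were H1f2 and H2bc8. H1f2 had 9.20, 8.92 and 8.95 in polysomal RNA of 4EGI-1 cells, against 7.79, 7.92 and 7.99 in polysomal RNA of control cells. In cytoplasmic RNA it had 9.06, 8.92 and 8.95 in 4EGI-1 cells, against 8.95, 8.94 and 8.96 in control cells. The polysomal groups did not overlap and the cytoplasmic groups did. H1f2 was thus 2.18-fold higher in polysomal RNA after 4EGI-1 (log2 1.12 ± 0.09, adjusted p = 2.2e-06), and the effects differed by 1.09 ± 0.13 (adjusted p = 0.000743).

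H2bc8 moved in cytoplasmic RNA. It had 7.35, 7.72 and 7.95 in cytoplasmic RNA of 4EGI-1 cells, against 8.73, 8.87 and 8.75 in cytoplasmic RNA of control cells. In polysomal RNA it had 7.11, 7.38 and 7.49 in 4EGI-1 cells, against 6.85, 6.57 and 7.24 in control cells. The cytoplasmic groups were apart by more than their spread and the polysomal groups overlapped. In cytoplasmic RNA it was 2.16-fold lower after 4EGI-1 (log2 -1.11 ± 0.17, adjusted p = 0.000589), and the effects differed by 1.55 ± 0.24 (adjusted p = 0.00339). The comparison of fractions shares these arrays. It gave 0.04 in 4EGI-1 and -1.05 in control cells for H1f2, and -0.35 in 4EGI-1 and -1.90 in control cells for H2bc8, and neither gene passed in 4EGI-1 cells (adjusted p = 0.84 and 0.23).

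In cytoplasmic RNA, 5 histone genes were higher and 3 lower after 4EGI-1, where 6.35% of all genes tested were higher and 3.99% lower. These counts are small and not far above the shares over all genes. The higher genes were replication-dependent members of H1, H2A and H2B, and 28 of the 44 genes were replication-dependent. The lower ones were H2bc8, given above, and the variants H2ax and H2ab1. No H3 or H4 gene passed, and the nearest was H4c8 (0.34 ± 0.11, adjusted p = 0.0775). All the H3 genes were dim. The median log2 change was 0.03 over the 28 replication-dependent genes and -0.22 over the 13 variants, against -0.02 over all genes. Set against each gene's cytoplasmic control mean, the median of the variants was -0.21, -0.23 and -0.21 on the 4EGI-1 arrays. On the control arrays, which are thus set against their own mean, it was -0.04, 0.04 and 0.08. The median change of the variants was -0.14 without control array 2 or without control array 3.

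H2bc4 had 8.28, 8.33 and 8.48 in cytoplasmic RNA of 4EGI-1 cells, against 5.61, 6.14 and 6.34 in control cells. The gap between the groups was larger than the spread within either. It was 5.03-fold higher (log2 2.33 ± 0.15, adjusted p = 5.69e-07). The control mean of 6.03 was at the dim level, so the size of this fold is uncertain. H2bc21 had 9.77, 9.66 and 9.11 in 4EGI-1 cells, against 8.34, 9.06 and 8.39 in control cells, and was 1.89-fold higher (log2 0.92 ± 0.19, adjusted p = 0.00546). Its lowest 4EGI-1 array and its highest control array were almost level.

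H2aw, the H2A gene of the Hist3 cluster, had 9.30, 8.97 and 9.30 in 4EGI-1 cells, against 8.15, 8.64 and 8.24 in control cells, and was 1.80-fold higher (log2 0.85 ± 0.13, adjusted p = 0.000525). H1f1, which encodes the linker histone H1.1, had 10.87, 10.69 and 10.96 in 4EGI-1 cells, against 10.27, 10.42 and 10.33 in control cells, and was 1.42-fold higher (log2 0.51 ± 0.10, adjusted p = 0.00383). Neither gene had overlapping groups. H1f3, for the linker histone H1.3, was dim and changed by 0.35 ± 0.10 (adjusted p = 0.0371).

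H2ax encodes the variant that is phosphorylated around DNA breaks. It had 8.28, 8.31 and 8.91 in cytoplasmic RNA of 4EGI-1 cells, against 9.38, 9.22 and 10.08 in control cells, and was 2.08-fold lower (log2 -1.06 ± 0.19, adjusted p = 0.00241). Array 3 was the highest of both groups, and the groups did not overlap. H2ab1, a testis variant of H2A, differed by -0.26 ± 0.07 (adjusted p = 0.0372). The calls of H1f3 and H2ab1 depended on single arrays and on the processing. H1f3 did not pass with quantile normalization of all arrays (adjusted p = 0.0649) or within fractions (0.0646), with median centring (0.0773) or with the cytoplasmic arrays alone (0.124), and H2ab1 did not pass with the cytoplasmic arrays alone (0.186). Nor did H1f3 pass without cytoplasmic 4EGI-1 arrays 1 or 3, any cytoplasmic control array, or polysomal control arrays 2 or 3 (adjusted p 0.0517 to 0.168). H2ab1 did not pass without cytoplasmic 4EGI-1 arrays 1 or 2, any control array of either fraction, or polysomal 4EGI-1 array 2 (0.053 to 0.117). The other 6 calls were kept in every alternative fit.

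**Figure D3:**
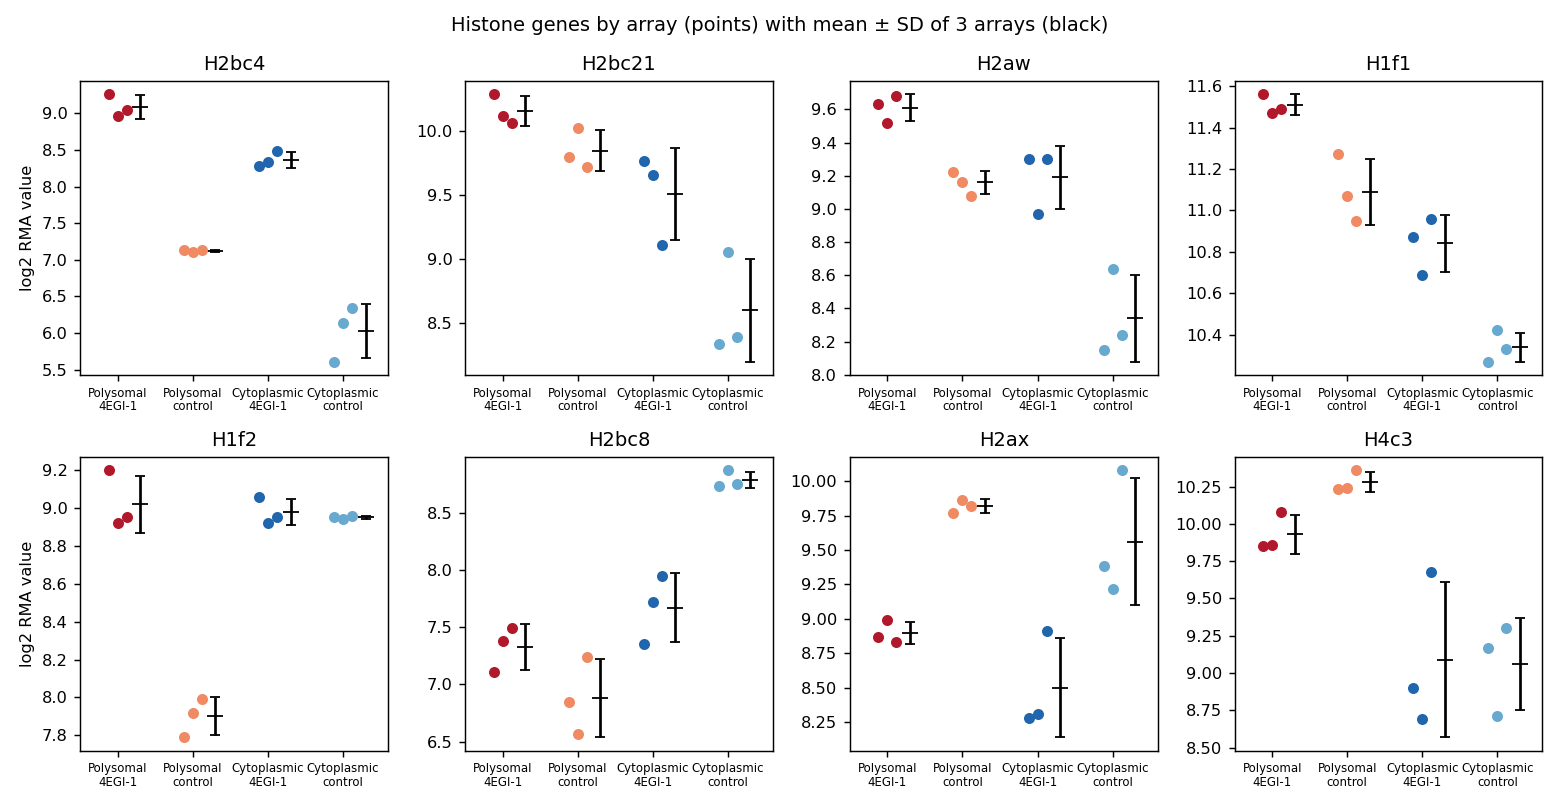
Log2 RMA value (vertical axis) of 8 histone genes on each of 3 arrays a group, with the mean and SD of the group in black; the groups are polysomal 4EGI-1, polysomal control, cytoplasmic 4EGI-1 and cytoplasmic control, and each panel has its own axis, which does not start at 0. H2bc4 is above its control in both fractions, H1f2 only in the polysomal pair, and H2bc8 is below its control only in the cytoplasmic pair.

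In polysomal RNA, 5 histone genes were higher and 4 lower after 4EGI-1, where 8.54% of all genes tested were higher and 6.88% lower. These counts are near the shares over all genes. The higher genes were H1f1, H1f2, H1f3, H2aw and H2bc4, all replication-dependent, as were 28 of the 44 genes. Of the higher genes of the 2 fractions, 4 were in both, which is 80% of either list, and H2ax was the one lower gene in both, 33.3% of the cytoplasmic and 25% of the polysomal list. The same overlap over all genes was not computed, so whether it is particular to histone genes was not tested. The groups lay apart with the 4EGI-1 arrays higher for 6 genes and lower for 12 of 44, where this was so for 16.8% and 20.5% of all genes.

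H2bc4 had 9.26, 8.96 and 9.04 in polysomal RNA of 4EGI-1 cells, against 7.13, 7.11 and 7.14 in control cells, and was 3.90-fold higher (log2 1.96 ± 0.15, adjusted p = 1.09e-06). H1f3 had 6.08, 5.84 and 6.08 in 4EGI-1 cells, against 5.24, 5.38 and 5.38 in control cells (0.67 ± 0.10, adjusted p = 0.000368). In both genes all 4EGI-1 arrays were above all control arrays, and those of H1f3 were near the dim level. H1f1 had 11.56, 11.47 and 11.49 in 4EGI-1 cells, against 11.27, 11.07 and 10.95 in control cells (0.41 ± 0.10, adjusted p = 0.00927). H2aw had 9.63, 9.52 and 9.68 in 4EGI-1 cells, against 9.22, 9.16 and 9.08 in control cells (0.46 ± 0.13, adjusted p = 0.0224). Neither gene had overlapping groups. The probe set of H2aw with Trim17 was higher after 4EGI-1 too, by 0.98 ± 0.13 in polysomal (adjusted p = 0.000107) and 0.67 ± 0.13 in cytoplasmic RNA (0.00356). H2bc21, which was higher in cytoplasmic RNA, had 10.29, 10.12 and 10.07 in polysomal RNA of 4EGI-1 cells, against 9.80, 10.03 and 9.72 in control cells, and did not pass here. Its effect in polysomal minus that in cytoplasmic RNA was -0.61 ± 0.27 (adjusted p = 0.439).

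H2ax had 8.87, 8.99 and 8.83 in polysomal RNA of 4EGI-1 cells, against 9.77, 9.86 and 9.82 in control cells, and was 1.89-fold lower (log2 -0.92 ± 0.19, adjusted p = 0.00414). The arrays within each group were close together. H2bc18, the H2B gene of the Hist2 cluster shown above, had 7.72, 7.61 and 7.50 in 4EGI-1 cells, against 8.07, 8.17 and 8.12 in control cells (-0.51 ± 0.11, adjusted p = 0.00435). H2aj, for the variant H2A.J, had 7.93, 8.02 and 8.08 in 4EGI-1 cells, against 8.36, 8.25 and 8.59 in control cells (-0.39 ± 0.10, adjusted p = 0.0185). H4c9 had 6.44, 6.60 and 6.52 in 4EGI-1 cells, against 6.91, 6.91 and 6.96 in control cells (-0.41 ± 0.12, adjusted p = 0.0284). All 3 had groups that did not overlap.

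H4c9 was the one H4 gene that passed. The 7 H4 genes had changes between -0.55 and -0.05 in polysomal RNA, with a median of -0.24 against -0.03 over all genes. H4c3 had 9.85, 9.86 and 10.08 in 4EGI-1 cells, against 10.23, 10.24 and 10.36 in control cells (-0.35, adjusted p = 0.323). H4c6 had 8.93, 8.83 and 8.78 in 4EGI-1 cells, against 9.27, 9.45 and 9.48 in control cells (-0.55, adjusted p = 0.201). The polysomal groups of both did not overlap, and both share 1 estimate of spread with their cytoplasmic arrays, which spread more. With the polysomal arrays fitted alone, 9 histone genes were lower in place of 4. The 5 shared H4 probe sets had changes of -0.28 to -0.10, and none of them passed.

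Some of these polysomal calls rest on single arrays. H1f1 did not pass without polysomal control array 3 (adjusted p = 0.0574). H2aw did not pass without polysomal control arrays 2 or 3 or polysomal 4EGI-1 arrays 1 or 3 (0.0638 to 0.0886), H2aj without polysomal control array 3 or polysomal 4EGI-1 arrays 1 or 2 (0.0514 to 0.106), and H4c9 without any polysomal control array or polysomal 4EGI-1 arrays 1 or 3 (0.0722 to 0.108). The count of lower genes was 2 without polysomal control array 3 or polysomal 4EGI-1 array 1. H2bc4, H1f2, H1f3, H2ax and H2bc18 passed in every alternative fit that held them.

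**Figure D4:**
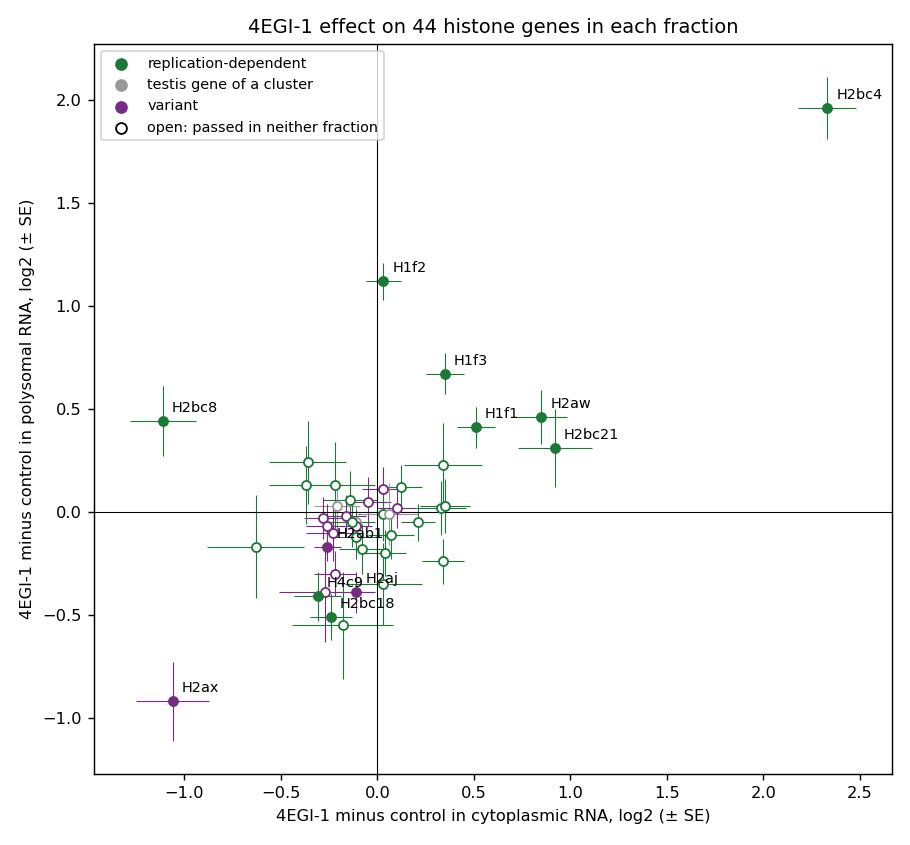
Change after 4EGI-1 (4EGI-1 minus control, log2) in cytoplasmic RNA (horizontal axis) and in polysomal RNA (vertical axis) for the 44 histone genes, with standard errors; green is replication-dependent, grey testis and purple variant, and named, filled points passed in at least 1 fraction. H2bc4 lies far to the upper right at 2.33 and 1.96, H2ax to the lower left at -1.06 and -0.92, H1f2 on the vertical axis at 1.12 and H2bc8 to the left at -1.11.

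The variants other than H2ax, H2aj and H2ab1 did not pass after 4EGI-1 in either fraction. H2az1, which also encodes H2A.Z, had 12.81, 12.76 and 12.73 in polysomal RNA of 4EGI-1 cells, against 12.80, 12.85 and 12.85 in control cells (-0.07 ± 0.08, adjusted p = 0.652). Its groups overlapped. H2az2 changed by -0.03 ± 0.10 in polysomal and -0.28 ± 0.10 in cytoplasmic RNA (adjusted p = 0.92 and 0.109). Macroh2a1, for a histone of repressed chromatin with a large additional domain, was the polysomal value nearest outside the threshold (-0.30 ± 0.11, adjusted p = 0.0741). H1f7, H1f8, H1f10, H2al2a, Macroh2a2, Macroh2a3 and H3f3a had polysomal changes of -0.39 to 0.11, with the dim Macroh2a2 at the low end. The 6 probe sets of H3f3a or H3f3b with a predicted gene had changes of -0.32 to 0.15 in polysomal and -0.26 to 0.24 in cytoplasmic RNA, none of which passed.

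Of the 22 shared histone probe sets, 1 was lower and 0 were higher after 4EGI-1 in each fraction. Over all genes tested, 6.88% were lower and 8.54% higher in polysomal RNA, and 3.99% and 6.35% in cytoplasmic RNA. The lower probe set was the 1 that lists 19 genes, among them H2ax with other H2A genes and an H3 gene. It is thus no separate evidence beside H2ax. It changed by -0.96 in polysomal and -0.90 in cytoplasmic RNA. The medians of the 22 were -0.10 in polysomal and 0.10 in cytoplasmic RNA.

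Genes that make or handle histone mRNA were given the same test. Of 17 genes of histone mRNA transcription and processing, 2 were higher and 1 lower in polysomal RNA after 4EGI-1, where 8.54% and 6.88% of all genes were. In cytoplasmic RNA 1 was higher and 1 lower, where 6.35% and 3.99% of all genes were. These counts are near the shares over all genes. The cytoplasmic calls, Casp8ap2 and E2f4, did not pass with the cytoplasmic arrays alone (adjusted p = 0.141 and 0.159), and the lower polysomal call, Ncbp2, did not pass without polysomal control array 2 (0.0825) or polysomal 4EGI-1 array 2 or 3 (0.0538 each). Npat, the coactivator of histone gene transcription in S phase, had 10.48, 10.40 and 10.35 in polysomal RNA of 4EGI-1 cells, against 10.06, 9.99 and 10.13 in control cells (0.35 ± 0.08, adjusted p = 0.00525). Casp8ap2, which encodes FLASH, a factor of histone mRNA 3′ end formation, had 10.49, 10.39 and 10.49 in 4EGI-1 cells, against 10.06, 10.06 and 10.01 in control cells (0.41 ± 0.10, adjusted p = 0.0104). The groups of both were apart. Slbp, named for its role, had a change of 0.02 ± 0.09 in polysomal and -0.15 ± 0.09 in cytoplasmic RNA (adjusted p = 0.928 and 0.356).

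Of 20 histone chaperone genes, 3 were higher and 0 lower in polysomal RNA, where 8.54% and 6.88% of all genes were. None passed in cytoplasmic RNA, where 6.35% of all genes were higher and 3.99% lower. The call of Cabin1, 1 of these 3, was lost when polysomal 4EGI-1 array 3 (adjusted p = 0.0725) or polysomal control array 2 (0.0672) was left out. Supt6, a chaperone of transcribed chromatin, was the largest, with 10.88, 10.76 and 10.96 in polysomal RNA of 4EGI-1 cells against 9.96, 10.04 and 10.07 in control cells (0.84 ± 0.09, adjusted p = 2.75e-05). Supt16, a subunit of the FACT complex, changed by 0.48 ± 0.09 (adjusted p = 0.00214). The effects on Supt6 differed between fractions (0.74 ± 0.13, adjusted p = 0.0111).

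Of 23 S phase genes, 7 were higher and 4 lower in polysomal RNA, where 8.54% and 6.88% of all genes were, and 0 were higher and 4 lower in cytoplasmic RNA, where 6.35% and 3.99% of all genes were. The medians of the list were 0.06 in polysomal and -0.02 in cytoplasmic RNA. Rrm1, the large subunit of ribonucleotide reductase, had 11.71, 11.64 and 11.72 in polysomal RNA of 4EGI-1 cells, against 10.82, 10.91 and 10.93 in control cells (0.81 ± 0.08, adjusted p = 9.52e-06). Pola1, a DNA polymerase, changed by 1.10 ± 0.12 (adjusted p = 2.74e-05), and the helicase subunits Mcm4 and Mcm7 by 0.77 ± 0.09 (4.35e-05) and 0.66 ± 0.11 (0.000618). The list held calls in both directions: Ccne1, for the S phase cyclin E1, had 8.41, 8.44 and 8.39 in polysomal RNA of 4EGI-1 cells, against 8.91, 9.01 and 8.91 in control cells (-0.53 ± 0.13, adjusted p = 0.00909), and Gins2, for a part of the replicative helicase, changed by -0.36 ± 0.09 (0.0107). Of the lower polysomal calls, those of Ccna2 and Ccne2 did not pass without any 1 of the polysomal arrays (adjusted p 0.0675 to 0.183). Of the higher ones, that of Cdc6 did not pass without polysomal control array 1 or 2 or polysomal 4EGI-1 array 1 or 3 (0.0877 to 0.145). In cytoplasmic RNA, Tk1, a thymidine kinase, changed by -0.36 ± 0.08 (adjusted p = 0.00994). With the cytoplasmic arrays alone, none of the 4 cytoplasmic calls (Tk1, Rrm2, Ccne1 and Cdk2) passed (0.0931 to 0.193). The effect on Rrm1 differed between fractions by 0.99 ± 0.11 (adjusted p = 0.000556), and 4 of the 23 genes passed that test, all higher, where 1.07% of all genes were. Rrm1 passed in every alternative fit. Mcm4, Mcm7 and Pola1, the others, did not pass without cytoplasmic control array 1, without polysomal control array 1 or 2, or without polysomal 4EGI-1 array 1 or 3 (adjusted p 0.0592 to 0.0911).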

How the data were processed

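The values are the series table deposited by the authors, with 1 log2 value for each probe set and array. They were made with RMA, which corrects background, normalises and summarises probes, as the submitters' processing notes name it. Its version is not given in the sources used here. RMA brings every array to one scale, so a change is relative to the other genes and a global change is not measured. Of 34760 probe sets, 21640 had 1 symbol, 1321 several and 11799 none. Symbols were updated by Entrez number to the RefSeq table of GRCm38.p6, which held 19855 of 19937 genes. The highest-mean probe set stands for a gene, and only H2az1 of the histone genes has more than 1. Histone genes are near-identical copies, so which copy a probe set reports is uncertain. Levels of different probe sets are not compared.

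Group means of all 12 arrays were fitted to the 19937 genes with limma 3.58.1 in R 4.3.3 (lmFit, contrasts.fit, eBayes without a trend; prior of 6.23 degrees of freedom), two-sided, with Benjamini-Hochberg adjustment over all genes and a threshold of 0.05. Adjusted p-values come from this fit, errors beside differences are its standard errors, and 3 arrays a group limit the precision. The fit was tested on simulated data. Comparisons of the same arrays are not independent of one another. Alternatives were a filter at the 40th percentile, the mean of all probe sets, median centring, quantile normalization, a trend, single fractions, a replicate block, arrays left out, and the shared probe sets added. The genes, lists and tests were chosen with earlier results of these data known. Described are, in each comparison, up to 10 histone genes a direction with the largest changes among those that passed, the variants, those nearest the threshold, the brightest probe set of a class, and up to 4 passing genes a direction of each other list.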

Additional observations from a re-analysis of the deposited data

Results flagged for a closer look

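For 2 histone genes the 4EGI-1 effect differed between polysomal and cytoplasmic RNA by the test of the difference itself (limma, adjusted p below 0.05). H1f2 had a difference of 1.09 (adjusted p = 0.000743), with a change of 1.12 in polysomal and 0.03 in cytoplasmic RNA. H2bc8 had a difference of 1.55 (adjusted p = 0.00339), with a change of 0.44 in polysomal and -1.11 in cytoplasmic RNA. Both passed in every alternative fit.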

How the results depend on the processing

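No call of a histone gene changed sign in any alternative. Every alternative kept 6 of 8 calls in cytoplasmic and 5 of 9 in polysomal RNA, 2 of 2 of the difference of effects, and 16 of 23 in control and 4 of 13 in 4EGI-1 cells between fractions. With the shared probe sets added, 31 were higher in polysomal RNA in control and 21 in 4EGI-1 cells, in place of 18 and 11, because more probe sets were counted. Polysomal arrays alone gave 9 genes lower after 4EGI-1 in place of 4. Lower in polysomal RNA of 4EGI-1 cells were 1 gene with the filter and 1 with median centring, in place of 2. Alternatives chosen after seeing the data left out both cytoplasmic arrays numbered 2, which gave 1 lower in the difference of effects in place of 0 and 0 between fractions in 4EGI-1 cells, or both numbered 3, which gave 5 lower in cytoplasmic RNA in place of 3 and 1 between fractions in 4EGI-1 cells. The cause was not tested. With 1 array left out, the genes higher and lower were 4 to 6 and 2 to 4 in cytoplasmic RNA, 4 to 5 and 2 to 5 in polysomal RNA, 2 to 2 and 0 to 1 for the difference of effects, 14 to 20 and 4 to 6 between fractions in control cells, and 4 to 15 and 0 to 2 between fractions in 4EGI-1 cells.

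Both fractions came from the same cultures, per the design text, but nothing in the labels ties an array number to a culture. Deviations of same-numbered arrays from their group means were correlated for each pair of groups. Between polysomal and cytoplasmic RNA they correlated at -0.0332 to 0.175. Between 4EGI-1 and control cells in cytoplasmic RNA they correlated at -0.13, 0.42 and 0.421 for arrays 1, 2 and 3. The correlation was above 0.1 for every pair of arrays 2 but not for every pair, so same-numbered arrays were not treated as pairs. With the replicate number as a block, 5 and 3 genes were higher and lower in cytoplasmic RNA, 6 and 5 in polysomal RNA, 2 and 0 for the difference of effects, and 20 and 5 in control and 11 and 2 in 4EGI-1 cells between fractions. The block ended no call of a histone gene, and added H2bc8 and Macroh2a1 in polysomal RNA and H2bc1 and H4f16 between fractions in control cells.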
